A study of Mus musculus with 16 samples.

Results

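Interferon-stimulated genes are the genes that cells switch on when interferon, a cytokine of antiviral defence, reaches them. A set of 36 such genes was followed in mouse epididymal fat, the fat pad beside the epididymis. The genes were found by exact name in the deposited mRNA table, and all 36 of them were present among 27150 genes and passed the filter on low counts that left 17535 genes for testing. RNA came from male C57BL/6J mice (strain label C57BL/6), bought at 6 weeks of age and about 22 g, in 4 groups of 4 labelled samples. One group ate a normal diet. The other groups ate a high-fat diet (HFD, 60% fat) for 8 weeks, and were then left without a drug (HFD) or given metformin, an antidiabetic biguanide, or resveratrol, a plant polyphenol, for 6 weeks. The sources used here give neither the drug doses nor the age at collection. The titles and the design text name epididymal fat, whereas the treatment text names skeletal muscle and the extraction text names retina. The fat cell markers Adipoq (adiponectin) and Plin1 (a lipid droplet coat protein) were at 1312 to 4035 and 635 to 1627 CPM (counts per 1000000 counts) in 15 libraries.

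Total mRNA counts were between 13350585 and 20531032 per library. Of the 16 count columns, 14 matched a sample title, and 2 matched only a group, 1 in HFD and 1 in metformin. These are called HFD unmatched and metformin unmatched, and the others carry a replicate number. Resveratrol 4 held 12131 CPM of Crisp1, a secreted protein of the epididymis, and was left out, so that resveratrol had n = 3 and the other groups n = 4. Crisp1 was also at 15.2 to 16.3 CPM in the 4 metformin libraries, and at 0 in every HFD library. Summed markers of ciliated epithelium exceeded 300 CPM in normal diet 2, metformin 2, 4 and unmatched, and resveratrol 2. Summed seminal vesicle markers reached 1108 CPM in normal diet 4 and 223.8 CPM in normal diet 2. Each title has a code of its own, and the labels do not say whether a code is an animal, so the p-values measure the spread between samples of unstated origin. In the names of the count columns, normal diet 1 to 3 share the first number of their code and normal diet 4 has another. HFD 1 to 3 likewise share theirs and HFD unmatched has another. Metformin 1 and unmatched share a first number, as do resveratrol 1 and 2, and each other drug library has its own within its group. What the number marks is not stated. Spermatogenic cell markers summed to 1230 CPM in metformin 2 and to 1.39 to 23.7 CPM in the other fitted libraries.

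Type I interferons act through the receptor chains Ifnar1 and Ifnar2, which start the kinases Jak1 and Tyk2. The kinases activate a complex that holds Stat2 and Irf9 and binds a DNA element called the interferon-stimulated response element. Interferon gamma acts through Ifngr1 and Ifngr2, and its signal reaches DNA at the gamma-activated site. The induced genes include sensors of viral RNA and DNA, proteins that block viral replication, and regulators that feed back on the pathway. In fat, interferon signalling is known in macrophages and other immune cells as well as in fat cells.

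RefSeq promoter windows (build GRCm38.p6, 250 bases before to 50 after the gene start) matched 29 of the 36 members. No window was in the table used for Usp18, Rtp4, Parp9, Parp14, Zbp1, Oas2 and Dhx58. The stretches below are from 6 members whose levels are described in every library, chosen because they hold the response element. They run 5′ to 3′ on the gene's own strand, and capitals mark matches to the response element. It was searched as GAAANNGAAA or its reverse complement TTTCNNTTTC, and overlapping matches run together.
Ifit1 (chr19:34640769-34640888, plus strand): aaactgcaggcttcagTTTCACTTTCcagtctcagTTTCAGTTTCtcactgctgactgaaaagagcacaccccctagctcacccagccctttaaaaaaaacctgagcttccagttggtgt
Oas1a (chr5:120907526-120907625, minus strand): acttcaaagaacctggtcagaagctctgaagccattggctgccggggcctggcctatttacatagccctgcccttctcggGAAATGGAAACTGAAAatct
Gbp2 (chr3:142620563-142620662, plus strand): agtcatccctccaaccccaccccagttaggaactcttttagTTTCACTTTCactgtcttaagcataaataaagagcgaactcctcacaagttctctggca
Bst2 (chr8:71537473-71537612, minus strand): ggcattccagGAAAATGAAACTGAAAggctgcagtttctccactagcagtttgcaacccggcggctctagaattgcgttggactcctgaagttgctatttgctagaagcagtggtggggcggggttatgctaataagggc
Ifit3, first match (chr19:34583363-34583392, plus strand): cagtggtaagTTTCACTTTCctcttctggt
Ifit3, second match (chr19:34583397-34583426, plus strand): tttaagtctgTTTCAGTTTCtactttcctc
Ifit3b, first match (chr19:34607759-34607788, plus strand): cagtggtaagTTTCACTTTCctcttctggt
Ifit3b, second match (chr19:34607793-34607822, plus strand): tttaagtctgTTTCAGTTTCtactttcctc

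The response element was found on either strand in 16 of the 29 member windows (55.2%), against 1079 of 27025 genes (3.99%) with a window of the same length. The gamma-activated site, searched as TTCNNNGAA, which reads the same on both strands, was found in 6 of the 29 (20.7%) and in 9.55% of all genes. The members were named for their response to interferon, so this share describes them. Ifit3 and Ifit3b carried their pair of matches in identical 30-base stretches, and their windows, set against each other at a shift of 32 bases without gaps, shared 201 of 268 bases. Oas1a and Bst2 each had a pair of overlapping matches and also a gamma-activated site. No response element matched in the windows of Cmpk2 and Ifi35. The plot of motif positions shows the matches by their distance from the gene start.

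**Figure D1:**
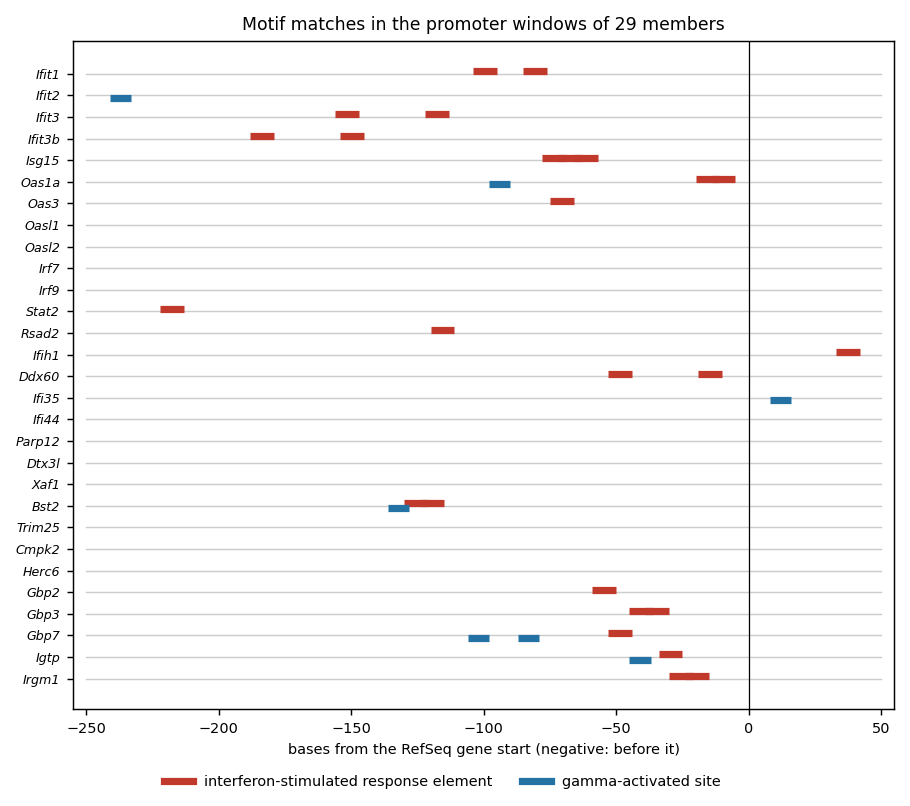
Matches to the response element (red) and to the gamma-activated site (blue) in the promoter windows of 29 members, by distance in bases from the RefSeq gene start. Of these windows, 16 hold the response element and 6 the gamma-activated site.

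Obese fat was compared with lean fat to see which of the genes moved with the diet. HFD fat had higher mRNA of 8 of the 36 members than normal diet fat, and none was lower, by adjusted or unadjusted p in edgeR or in DESeq2. The 8 were Ifit3b, Oas1a, Gbp2, Ifit3, Oas3, Cmpk2, Bst2 and Ifi35, with fold changes from 1.33 (Ifi35) to 2.53 (Ifit3b). Over all genes tested, 13.8% were called higher (2412 higher and 1638 lower, or 1991 and 2126 with library totals as the only scaling), and 8 of 36 is to be read against that share. The median log2 fold change was 0.38 over the members and -0.04 over all genes, and 32 members lay above 0. All HFD libraries lay above all normal diet libraries for 15 members, against 14.1% of all genes. In bulk tissue, more cells of a type and more RNA per cell cannot be told apart. Tests are edgeR's quasi-likelihood test on counts with Benjamini-Hochberg adjustment over all genes tested and a threshold of 0.05, levels are CPM scaled with edgeR's TMM factors, and fold changes are given as log2 values with the standard error (SE) of the model.

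**Figure D2:**
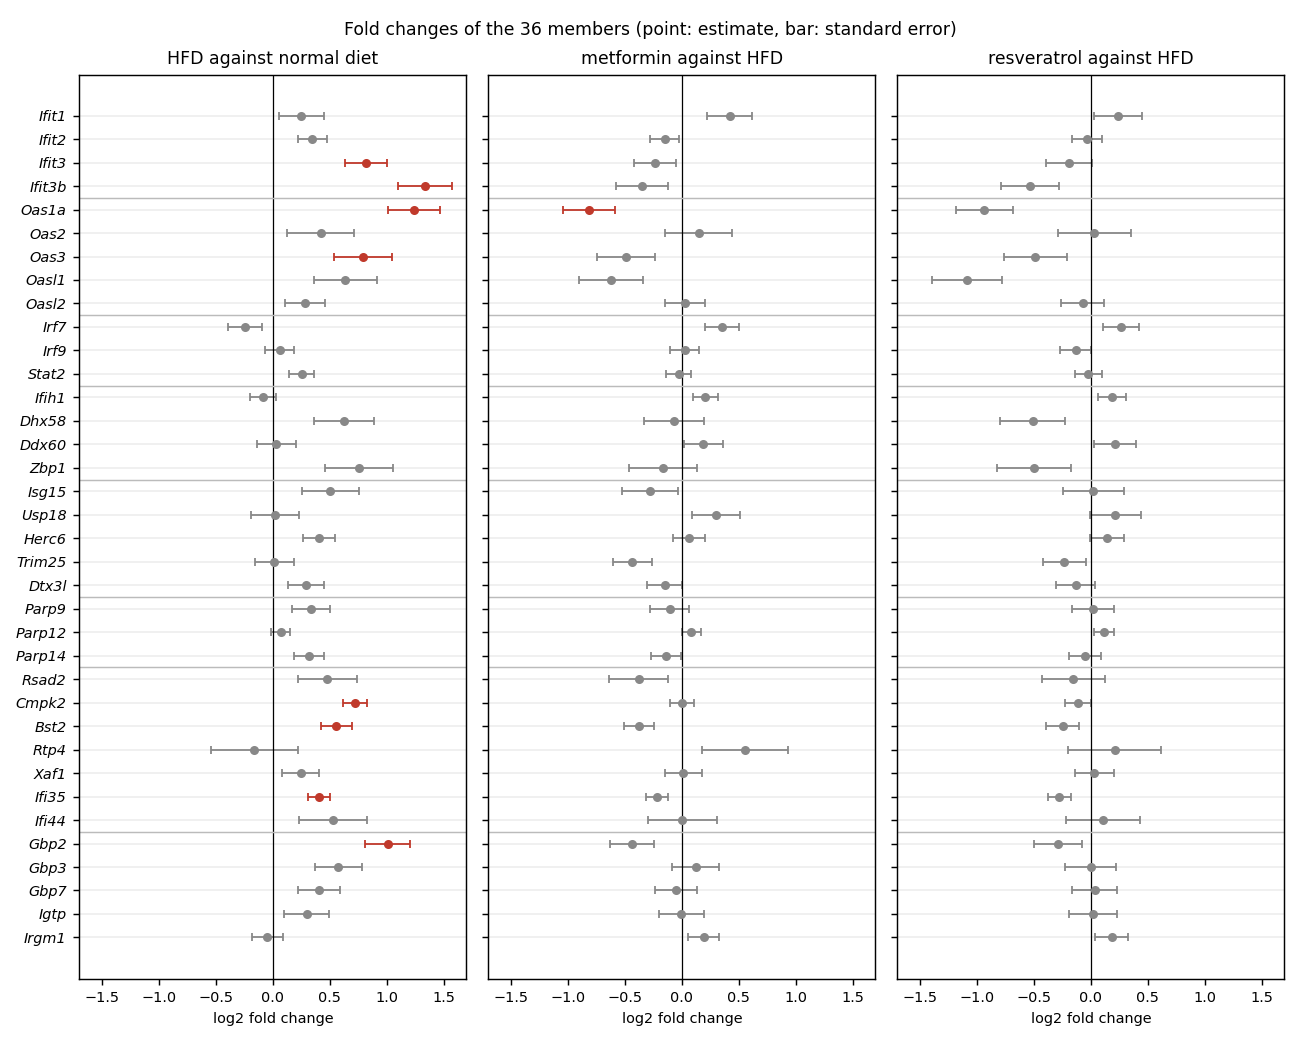
Log2 fold change (x axis) with its standard error for the 36 members, ordered by role, in HFD against normal diet, metformin against HFD and resveratrol against HFD. Red points passed the adjusted p threshold of 0.05: 8 members in the first comparison, Oas1a alone in the second and none in the third.

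The IFIT proteins bind viral RNA and block its translation. Their genes lie together on chromosome 19. Ifit3b (chr19:34607970-34613401) was at 5.07, 3.59, 3.32 and 2.76 CPM in normal diet 1 to 4. It was at 9.32, 9.05, 9.54 and 9.28 CPM in HFD 1, 2, 3 and unmatched. All HFD libraries were above all lean libraries, and they varied little among themselves. With metformin it was at 8.10, 5.86, 9.51 and 5.68 CPM in libraries 1, 2, 4 and unmatched, and with resveratrol at 8.58, 5.02 and 5.67 CPM in 1 to 3. The rise with HFD was 1.34 ± 0.24 on the log2 scale (SE, adjusted p = 0.00228, edgeR). The differences of the drug groups from HFD, -0.35 ± 0.23 and -0.53 ± 0.25, did not pass the test.

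Ifit3 (chr19:34583531-34588731) is a near copy of Ifit3b, and the split of reads between them by the authors' counting is uncertain. It was at 16.8, 12.99, 13.8 and 9.85 CPM in normal diet and at 22.7, 21.8, 24.3 and 25.4 CPM in HFD, in the same library order. The ranges did not overlap, and the difference was 0.82 ± 0.19 (adjusted p = 0.00834, edgeR). Metformin libraries were at 21.2, 18.3, 24.8 and 15.7 CPM and resveratrol libraries at 26.8, 17.1 and 17.8 CPM, and both groups reached into the HFD range. The ratio of Ifit3b to Ifit3 was 0.24 to 0.30 in lean fat, 0.36 to 0.41 in HFD, 0.32 to 0.38 with metformin and 0.29 to 0.32 with resveratrol. The lean and HFD ratios did not overlap, which is given as a description.

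Ifit1 (chr19:34640871-34650009) was at 7.76, 7.88, 7.39 and 5.22 CPM in normal diet and at 9.07, 8.08, 6.99 and 9.46 CPM in HFD, with overlapping ranges. Metformin libraries were at 13.7, 10.6, 10.7 and 10.04 CPM, all above the HFD libraries, and resveratrol libraries at 11.1, 6.74 and 11.9 CPM. None of its differences passed the test: HFD against normal diet 0.25 ± 0.20 (adjusted p = 0.375, edgeR), metformin against HFD 0.42 ± 0.20 (adjusted p = 0.145) and resveratrol against HFD 0.24 ± 0.21 (adjusted p = 0.536). Ifit2 was at 23.6 to 31.96 CPM in lean fat and 34.2 to 36.4 CPM in HFD, without overlap, and its adjusted p of 0.0619 in edgeR missed the threshold, while it passed in DESeq2.

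The OAS enzymes make a short adenylate messenger that starts RNA degradation when they meet double-stranded RNA. Oas1a (chr5:120896256-120907521), 1 of the family's enzymes, was at 6.15, 4.40, 7.76 and 3.52 CPM in normal diet 1 to 4 and at 12.9, 14.8, 14.1 and 9.82 CPM in HFD 1, 2, 3 and unmatched. All HFD libraries were above all lean ones, and HFD unmatched was the lowest of them. Metformin libraries were close together at 6.999, 7.45, 7.49 and 7.37 CPM, and resveratrol libraries were at 7.21, 5.22 and 7.77 CPM. All libraries of both drug groups lay below all HFD libraries. Oas1a rose with HFD by 1.24 ± 0.23 on the log2 scale (adjusted p = 0.0029, edgeR). It was lower with metformin than in HFD by a log2 difference of -0.82 ± 0.23 (adjusted p = 0.0363). With resveratrol the difference was -0.94 ± 0.25 (adjusted p = 0.0534), which missed the threshold. Oas1a belongs to a family of close copies, so its read assignment is uncertain.

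Oas3 (chr5:120753098-120777661) was the lowest member per length, with a median of 0.89 counts per kilobase and 1000000 counts. It was at 2.69, 2.48, 3.16 and 2.29 CPM in normal diet and at 4.10, 6.04, 3.13 and 5.12 CPM in HFD, and HFD 3 fell within the lean range. The difference was 0.79 ± 0.26 (adjusted p = 0.0405, edgeR), and this call was lost in 15 of 24 alternatives. Metformin libraries were at 3.91, 2.05, 3.34 and 3.77 CPM and resveratrol libraries at 3.75, 2.75 and 3.31 CPM. Both groups overlapped with HFD. Oasl1, which limits translation of Irf7, was at 2.11 to 3.18 CPM in lean fat, 3.39 to 5.16 CPM in HFD, 1.58 to 3.36 CPM with metformin and 1.47 to 2.44 CPM with resveratrol. Its resveratrol difference from HFD was -1.09 ± 0.31 (adjusted p = 0.0621, edgeR), and neither this nor its HFD difference passed. Oas2 and Oasl2 overlapped between HFD and each of the other groups.

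**Figure D3:**
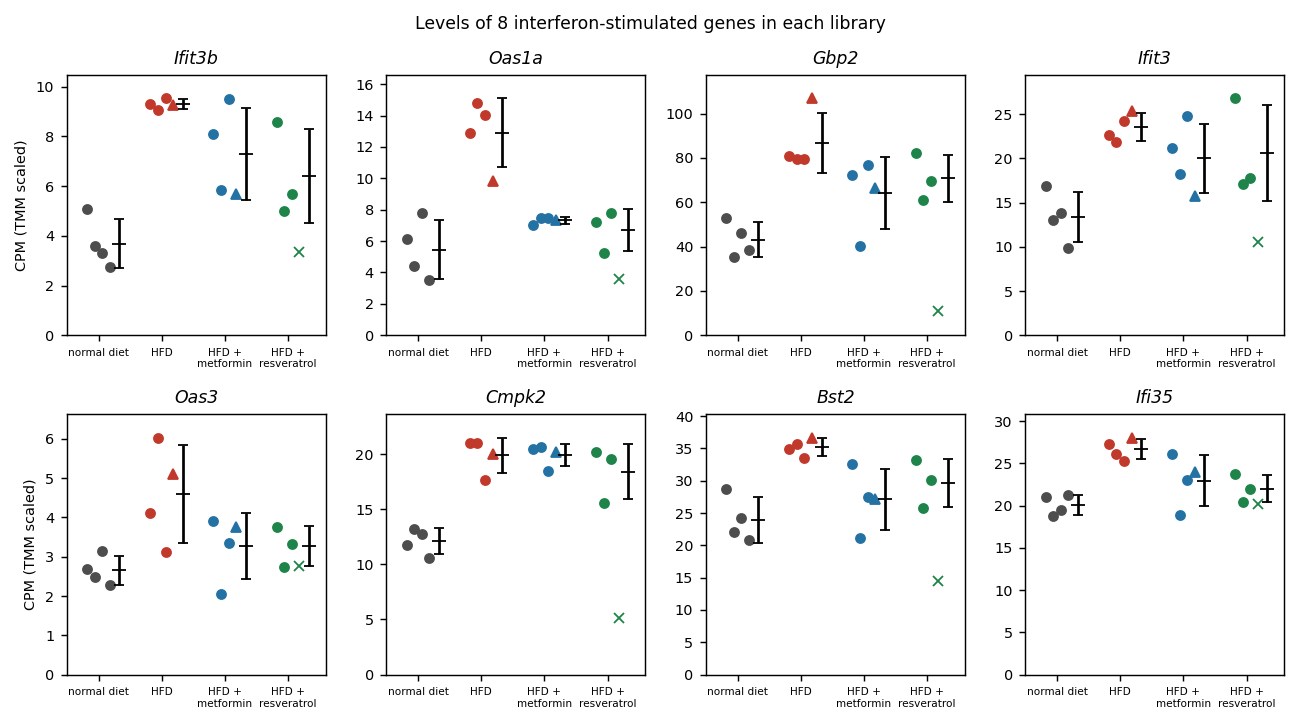
TMM-scaled CPM (y axis, from 0) of the 8 members higher in HFD, in each library by group. Triangles are the columns that match no title, the cross is resveratrol 4, which is left out of the mean and SD (black bars), and HFD libraries lie above the lean libraries for all shown genes except Oas3.

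The interferon-inducible GTPases of the GBP and IRG families attack membranes around intracellular pathogens. Gbp2 (chr3:142620602-142638008) was at 52.9, 35.1, 46.0 and 38.5 CPM in normal diet and at 80.8, 79.5, 79.4 and 106.9 CPM in HFD. The ranges did not overlap and HFD unmatched was highest. Metformin libraries were at 72.4, 40.5, 76.8 and 66.3 CPM and resveratrol libraries at 82.0, 60.9 and 69.5 CPM. The rise with HFD was 1.01 ± 0.20 (adjusted p = 0.00372, edgeR). The metformin libraries all lay below HFD, with a difference of -0.44 ± 0.19 (adjusted p = 0.125) that did not pass. Gbp3 and Gbp7, its neighbours on chromosome 3, were at 15.01 to 23.7 and 30.4 to 36.1 CPM in lean fat and at 24.2 to 29.7 and 34.7 to 55.1 CPM in HFD. Neither passed in edgeR. Gbp3 did not overlap between the groups and passed in DESeq2 and in a fit of the 2 groups alone. Reads of the similar Gbp genes may be split uncertainly. Igtp and Irgm1 overlapped between lean and HFD fat.

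Of the 7 other antiviral effectors, 3 rose with HFD, against 13.8% of all genes. Cmpk2 (chr12:26469204-26479837), a mitochondrial nucleotide kinase next to Rsad2, was at 11.8, 13.2, 12.7 and 10.6 CPM in normal diet. It was at 21.03, 20.97, 17.6 and 20.0 CPM in HFD, at 20.5, 20.6, 18.5 and 20.2 CPM with metformin and at 20.1, 15.5 and 19.6 CPM with resveratrol. Every library of the 3 HFD-fed groups in the fit was above every lean library. The difference of HFD from normal diet was 0.72 ± 0.10 (adjusted p = 0.000768, edgeR), and that of metformin from HFD was 0.00 ± 0.10. Rsad2 (viperin) was at 11.7 to 25.6 CPM in lean fat and 22.2 to 31.7 CPM in HFD, with overlap.

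Bst2 (chr8:71534255-71537456), called tetherin because it holds budding virus at the cell surface, was the highest member per length, with a median of 35.7 counts per kilobase and 1000000 counts. It was at 28.7, 22.0, 24.2 and 20.8 CPM in normal diet and at 34.9, 35.8, 33.5 and 36.7 CPM in HFD. The HFD libraries were all higher, by 0.56 ± 0.13 (adjusted p = 0.0102, edgeR). Metformin libraries were at 32.7, 21.1, 27.5 and 27.2 CPM and resveratrol libraries at 33.2, 25.7 and 30.1 CPM, all below every HFD library. These differences from HFD, -0.38 ± 0.13 (adjusted p = 0.0685) and -0.25 ± 0.15 (adjusted p = 0.333), did not pass in edgeR, and the metformin difference passed in DESeq2. Bst2 also marks plasmacytoid dendritic cells, the main producers of type I interferon. Of 8 markers of those cells, 5 were tested and Bst2 itself was the 1 that rose. Their log2 differences lay above 0 for 3 and below 0 for 2, with a median of 0.20. Their summed level, 158.6 to 265.0 CPM in lean fat and 220.7 to 275.7 CPM in HFD, is almost all Tcf4, which other cells also express, and Bst2 itself.

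Ifi35 (chr11:101448407-101458698), an interferon-induced leucine zipper protein, had the smallest change among the members that rose. It was at 20.98, 18.8, 19.5 and 21.2 CPM in normal diet and at 27.3, 26.1, 25.3 and 28.1 CPM in HFD. The groups did not overlap, and the difference was 0.41 ± 0.10 (adjusted p = 0.00928, edgeR). Metformin libraries were at 26.1, 18.9, 23.02 and 23.96 CPM and resveratrol libraries at 23.7, 20.4 and 22.0 CPM. Resveratrol libraries were all below HFD, with a difference of -0.28 ± 0.10 (adjusted p = 0.143) that did not pass. Rtp4, Xaf1 and Ifi44 overlapped between lean and HFD fat.

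None of the 3 transcription factors that carry the signal passed the test in HFD against normal diet, and Stat2 was the 1 with an unadjusted p under 0.05. The share of all genes with such an unadjusted p in this comparison was not counted. Stat2 was at 38.7, 35.7, 31.2 and 31.7 CPM in normal diet and at 40.2, 43.2, 35.6 and 44.8 CPM in HFD. It was at 44.7, 40.0, 37.6 and 38.3 CPM with metformin and at 45.8, 34.1 and 41.1 CPM with resveratrol, and all groups overlapped. Its HFD difference was 0.25 ± 0.11 (adjusted p = 0.113, edgeR). Irf7, the factor that amplifies type I interferon production, was at 15.98, 14.4, 14.02 and 11.5 CPM in normal diet and at 12.4, 11.3, 9.28 and 14.2 CPM in HFD. It was one of 4 members with a negative estimate, -0.24 ± 0.15 (adjusted p = 0.244). Irf7 was at 13.5, 14.5, 18.5 and 13.6 CPM with metformin and at 14.6, 13.6 and 14.3 CPM with resveratrol. Irf9 was at 20.8 to 32.9 CPM over the 15 libraries.

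Isg15, a ubiquitin-like protein that is attached to other proteins, was at 2.61, 2.98, 3.21 and 1.64 CPM in normal diet and at 3.85, 4.14, 2.82 and 4.04 CPM in HFD. It was at 2.88, 2.93, 3.95 and 2.46 CPM with metformin and at 3.34, 4.60 and 3.38 CPM with resveratrol, and HFD overlapped with each of the other groups. Its HFD difference of 0.51 ± 0.25 (adjusted p = 0.154, edgeR) did not pass. None of the 5 members of the ISG15 and ubiquitin group passed in edgeR, where 1 (Herc6) had an unadjusted p under 0.05 in HFD against normal diet and passed in DESeq2. DESeq2 called 16.9% of all genes higher, and the share of all genes under the unadjusted p was not counted. Herc6, the mouse ligase for Isg15, came nearest with 0.41 ± 0.14 (adjusted p = 0.0518), at 22.2 to 24.8 CPM in lean fat and 26.01 to 36.7 CPM in HFD. Usp18, which removes Isg15 and restrains the receptor, was at 5.33 to 8.44 CPM in lean fat and 5.73 to 7.65 CPM in HFD.

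The 4 nucleic acid sensors and the 3 ADP-ribosyltransferases held no member that passed in edgeR in any of these comparisons. In HFD against normal diet, Zbp1, Dhx58 and Parp14 had an unadjusted p under 0.05, and the share of all genes under it was not counted. Zbp1 and Parp14 passed in DESeq2, against 16.9% of all genes higher. Ifih1 (MDA5, a sensor of long double-stranded RNA) was at 56.2 to 64.6 CPM in lean fat and 54.6 to 64.2 CPM in HFD. Zbp1, a sensor of Z-form nucleic acid, was at 2.17 to 5.23 CPM in lean fat and 5.42 to 6.81 CPM in HFD, without overlap, and Dhx58 (LGP2) at 5.76 to 10.1 and 10.3 to 14.2 CPM. Their adjusted p-values were 0.0855 and 0.103. Parp14 was at 116.3 to 143.8 CPM in lean fat and 149.1 to 176.2 CPM in HFD, also without overlap (adjusted p = 0.0982, edgeR). The heatmap of all members shows these differences library by library.

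**Figure D4:**
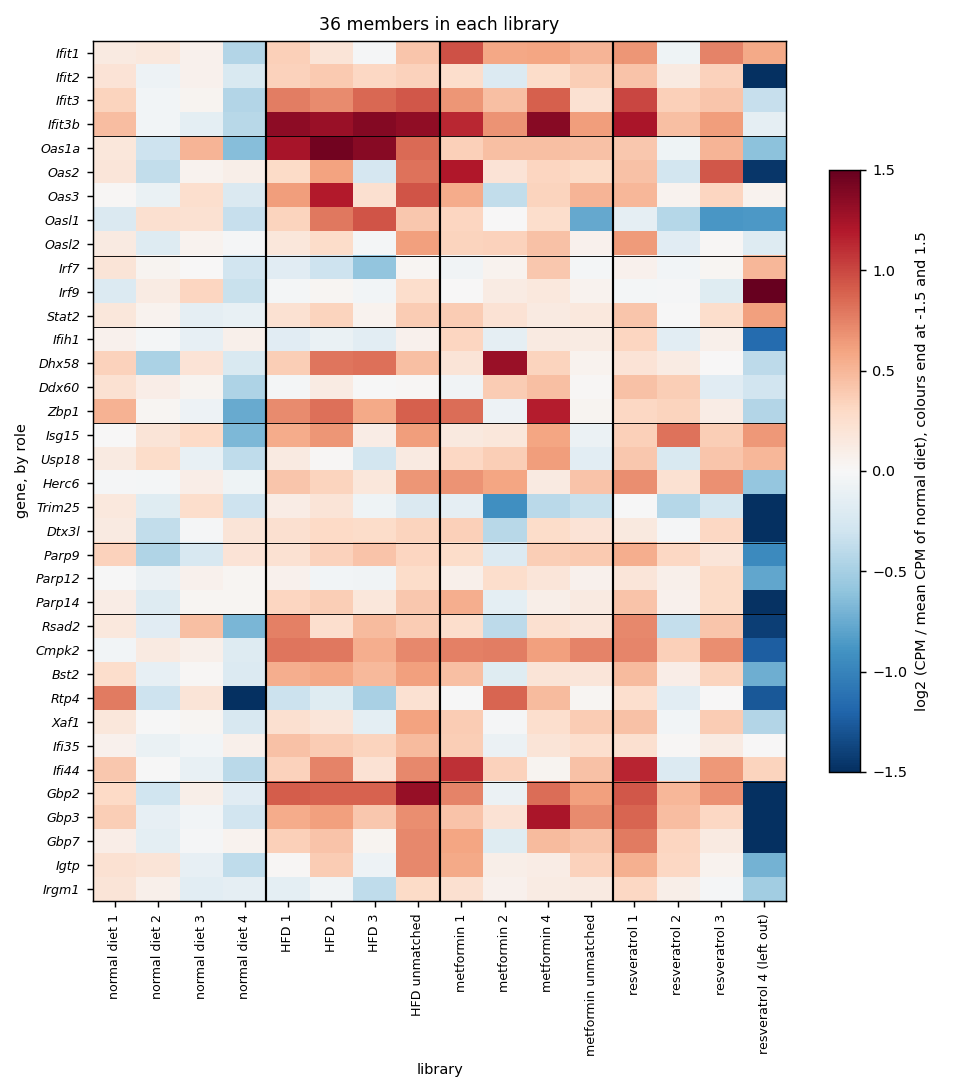
Log2 ratio of each member's CPM to its mean in the normal diet libraries, for 36 genes by role (rows) in 16 libraries (columns). Normal diet 4 is the lowest of the 15 fitted libraries for 19 members, and resveratrol 4, which is left out of the fit, is below all 15 for 19 members and above all 15 for 3. The share of all genes with such values was not counted.

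The lean libraries differed among themselves in ways that touch this comparison. Normal diet 4 was the lowest of 15 libraries for 19 members and normal diet 2 for 8, and these were the lean libraries rich in seminal vesicle and ciliated epithelium transcripts. The share of all genes with their lowest level in these libraries was not counted, so a shift of the whole library is not told apart. All 4 seminal vesicle markers were called lower in HFD, where their sum was 0.12 to 4.51 CPM, against 1.18 to 1108 CPM in lean fat. Leaving out normal diet 2 and 4 left 3 members that passed in HFD against normal diet (Ifit3b, Oas1a and Cmpk2). The share of all genes called higher was then 4.44%, and the members' median was 0.25. Whether the foreign transcripts set the lean levels was not tested, because this fit also has fewer lean libraries. With all 16 libraries in the fit 3 members passed as well (Ifit3b, Oas1a and Ifi35), against 5.3% of genes higher, and with DESeq2 13 passed, against 16.9% of genes higher. Ifit3b and Oas1a passed under every alternative run, and no member changed direction among the 8.

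Macrophage markers were measured beside the members. Of 12 macrophage markers, 8 rose with HFD, 11 fell with metformin and 6 fell with resveratrol, against 13.8%, 7.85% and 3.09% of all genes. Their median log2 difference was 0.81 in HFD against normal diet, -1.20 in metformin against HFD and -1.08 in resveratrol against HFD, next to 0.38, -0.04 and -0.03 for the members. Their summed level was 1373 to 2232 CPM in lean fat, 1830 to 4384 CPM in HFD, 1093 to 1652 CPM with metformin and 1484 to 1607 CPM with resveratrol, and none of the 12 was at 0 in any fitted library. HFD 1, 2 and 3 were at 3844, 4087 and 4384 CPM, and HFD unmatched was at 1830 CPM, within the lean range. In HFD unmatched the median of the members was 0.46 log2 units above the lean mean, the highest of the 15 libraries, and 5 members had their highest level. This library also had the highest summed T and NK cell markers of the 15 (23.7 CPM, against 8.14 to 17.0 CPM) and the highest summed endothelial markers (2164 CPM, against 1054 to 2082 CPM). Of the T and NK cell markers, Cd3d, Cd3e, Cd3g and Cd8a were highest there, at 2.11 to 4.10 CPM. Cd4, Trac, Nkg7, Ncr1, Klrb1c, Gzma and Prf1 were not. Of the endothelial markers, Cdh5, Kdr and Tie1 were highest there, and Pecam1, Tek, Vwf, Emcn and Cldn5 were not. Resveratrol 1 came next for the members, with a median of 0.43 and the highest level of 10 members, at 1607 CPM of macrophage markers. The share of all genes with their highest level in either library was not counted. The part of these cell types in the members' levels was not tested. Without the columns that match no title, 7 of the 8 members passed (not Oas3). That count is not set against the share of all genes called in the same fit.

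**Figure D5:**
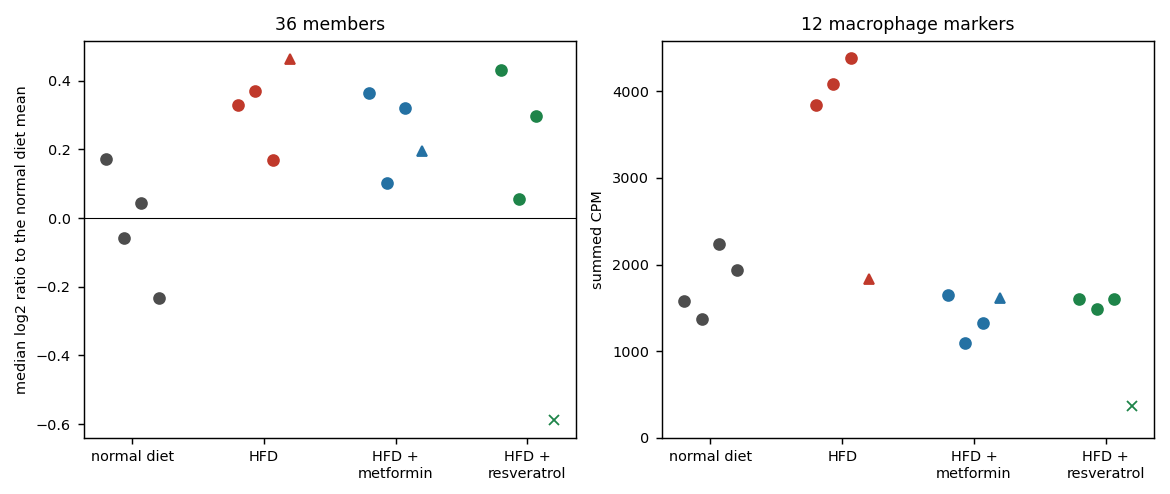
Left, the median over 36 members of the log2 ratio to the normal diet mean. Right, the summed CPM of 12 macrophage markers, both by library and group with triangles for the columns that match no title and a cross for resveratrol 4. HFD unmatched is highest on the left (0.46) and within the lean range on the right (1830 CPM).

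Genes upstream of the members were higher in HFD in several places. No interferon gene could be tested: of 21 ligand genes listed, 6 were in the table, and none exceeded 8 counts in a library. Of 6 receptor genes, 4 rose with HFD (13.8% of all genes), namely Ifngr2 (0.84 ± 0.13, adjusted p = 0.00102), Ifnar1 (0.52 ± 0.11), Il10rb (0.76 ± 0.16) and Ifnar2 (0.50 ± 0.14). The other 2 had estimates below 0, the lowest at -2.67, and neither was called. In metformin against HFD the highest estimate among the 6 was 2.57, and it was not called. The 4 that rose were lower with metformin than in HFD, by -0.71 ± 0.13, -0.53 ± 0.11, -0.68 ± 0.16 and -0.55 ± 0.14 in the order above, against 7.85% of all genes. Ifngr2 and Ifnar1 were lower with resveratrol than in HFD, against 3.09% of all genes. Among the receptor kinases and transcription factors of the pathway, Irf8 rose with HFD by 0.99 ± 0.20 (adjusted p = 0.00452, edgeR), Irf5 by 1.27 ± 0.34, Tyk2 by 0.48 ± 0.10 and Jak1 by 0.38 ± 0.12, against 13.8% of all genes called higher. Stat3 fell by 0.42 ± 0.12. Several of these genes, such as Irf8, Irf5 and the sensor Tlr8 (1.79 ± 0.35), are known from myeloid cells. HFD unmatched lay within the lean range for Ifnar1 (89.0 CPM, lean 71.3 to 93.2), Irf5 (26.7, lean 10.2 to 34.3) and Tlr8 (20.3, lean 9.45 to 21.6). For Ifngr2, Il10rb, Ifnar2, Irf8, Tyk2 and Jak1 all HFD libraries lay above all lean ones.

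Of 15 sensing genes upstream of interferon, 3 rose with HFD (Tlr8, Irak4 at 0.61 ± 0.14 and Ikbke at 0.77 ± 0.22), and 6 fell with metformin, against 13.8% and 7.85% of all genes. Of 8 inhibitors, Trim30a (0.54 ± 0.11) and Ptpn6 (1.21 ± 0.26) rose, against 13.8% of all genes. Ptpn6 (-1.395 ± 0.258) and Tnfaip3 (-0.947 ± 0.228) were lower with metformin than in HFD, against 7.85% of all genes. Among 58 further interferon-stimulated genes tested, 14 rose with HFD, against 13.8% of all genes, and 2 fell. The risen genes included Samd9l (0.60 ± 0.07, adjusted p = 0.000441), Gbp5 (1.07 ± 0.19), Gbp10 (1.62 ± 0.35), Phf11d (0.71 ± 0.15) and Casp1 (1.37 ± 0.31), and Ifitm1 fell by 1.12 ± 0.28. HFD unmatched lay within the lean range for Ikbke (23.7 CPM, lean 20.4 to 30.8), Ptpn6 (16.3, lean 9.35 to 19.4) and Casp1 (9.76, lean 6.82 to 10.3). For Irak4, Trim30a, Samd9l, Gbp5, Gbp10 and Phf11d all HFD libraries lay above all lean ones. With metformin 5 of the 58 fell, a share near the 7.85% of all genes. Irf8 differed from HFD by -1.36 ± 0.20 with metformin and -1.23 ± 0.22 with resveratrol.

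The drug groups were compared with HFD to see whether treatment altered the genes. With metformin 1 of 36 members passed, Oas1a, and it was lower. Over all genes 7.85% were called lower (1069 higher and 1376 lower, or 1320 and 974 with library totals as the only scaling). DESeq2 called Oas1a and Bst2 lower, against 11.6% of all genes. At an unadjusted p under 0.05 in edgeR, 6 members were lower, against 15.8% of all genes, and Irf7 was higher. Metformin libraries lay below all HFD libraries for 4 members (Oas1a, Oasl1, Bst2 and Gbp2), against 8.74% of all genes. The members' median log2 difference was -0.04, against 0.04 over all genes, with 16 members above 0. The Oas1a call was lost without HFD 1, 2 or 3, without metformin 2, 4 or unmatched, with all 16 libraries, with library totals as the only scaling and without the libraries rich in ciliated epithelium genes. The estimate stayed between -0.93 and -0.71 in all of them. Of the 4 metformin libraries, 3 were rich in ciliated epithelium transcripts, with summed markers of 520.9 to 1228 CPM, against 20.4 to 22.3 CPM in HFD. All 4 metformin libraries, metformin 1 among them, held summed epididymis markers of 24.1 to 46.8 CPM, against 0.15 to 0.21 CPM in HFD. The part of both kinds of transcript in the comparison was not tested.

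With resveratrol no member passed against HFD in edgeR, and 3.09% of all genes were called lower. At an unadjusted p under 0.05, 3 members were lower (Oas1a, Oasl1 and Ifi35), against 12.9% of all genes, and these 3 passed in DESeq2, against 8.82% of all genes. Resveratrol libraries lay below all HFD libraries for 7 members (Oas1a, Oasl1, Ifi35, Bst2, Ifit3b, Dhx58 and Zbp1), against 12.4% of all genes at n = 3. The members' median was -0.03 and 16 were above 0. Both drug comparisons share the HFD libraries with each other and with the diet comparison.

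The 2 drugs were also set against each other and against lean fat. No member differed between metformin and resveratrol in edgeR, by adjusted p (0.0114% of all genes) or by unadjusted p (7.01% of all genes), nor in DESeq2 (0.123% of all genes). For Oas1a the group means were 7.33 ± 0.22 CPM (SD, n = 4) with metformin and 6.74 ± 1.34 CPM (SD, n = 3) with resveratrol. Against normal diet, Cmpk2 was the single member that was higher with metformin, by 0.72 ± 0.11 (adjusted p = 0.00725, edgeR), against 0.804% of all genes. This call was lost with all 16 libraries, in a fit of the 2 groups alone, without the libraries rich in ciliated epithelium genes and without normal diet 2 and 4. DESeq2 called 6 members higher, against 3.21% of all genes, and at an unadjusted p under 0.05 in edgeR 7 were higher, against 10.4% of all genes, and Trim25 was lower. Ifit3b came next with 0.99 ± 0.24 (adjusted p = 0.0545). With resveratrol no member passed against normal diet, against 0.103% of all genes higher, and Cmpk2 came nearest with 0.61 ± 0.11 (adjusted p = 0.0702, edgeR). At an unadjusted p under 0.05, 10 members were higher there, against 5.62% of all genes, and DESeq2 called Cmpk2, Gbp2 and Herc6 higher, against 1.42% of all genes. The members' medians against lean fat were 0.27 with metformin and 0.29 with resveratrol, with 35 and 33 members above 0, next to medians of 0.03 and -0.02 over all genes. Without normal diet 2 and 4 the members' medians were 0.15 and 0.17, with 31 and 29 above 0. The resveratrol median was 0.19 without resveratrol 1 and 0.12 with all 16 libraries.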

How the data were processed

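The deposited tables held whole-number counts per transcript and, beside them, the authors' FPKM values and transcript lengths, per the file headers. FPKM values, deposited by the authors, were used only to check which count column belonged to which library. For 14 libraries the total they implied differed from the summed counts by at most 0.0418%. The transcript length, a deposited value in bases, served for levels per kilobase. Per the submitters' processing notes, fastp, HISAT2 and build GRCm38 were used. The sources used here give no counting tool, annotation release or strand setting, so the counts of overlapping, antisense and near-identical genes are uncertain. A further 4 columns of per-sample values were not used. Of the mRNA records, 5 that were broken over 2 lines were rejoined, and 91879 transcripts were summed to 27150 genes.

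A robust quasi-likelihood model was fitted with edgeR 4.0.16 in R 4.3.3 to 15 libraries of all 4 groups, after its filter on low counts and TMM scaling. Tests were two-sided with Benjamini-Hochberg adjustment over 17535 genes. The script was tested on simulated data. In HFD against normal diet it called 47% of genes given a log2 change of 1 in either direction and 70.7% of those given 2. These genes were drawn at random from all genes tested, so the shares are not those of the members. DESeq2 1.42.0, other scalings, no filter, other sets of libraries and each library left out were alternatives. Levels per kilobase are counts divided by transcript length and summed by gene, per 1000000 mRNA counts. Promoter windows and their motif matches come from RefSeq on GRCm38.p6. The members and gene lists were chosen with earlier results of these data known. Values in every library are given for members called in a comparison with HFD and for Ifit1, Isg15, Irf7, Stat2 and Gbp2, and of the other pathway lists at most 6 called genes a list are named, by smallest p in HFD against normal diet. A gene of the pathway lists is not reported here.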

Additional observations from a re-analysis of the deposited data

Results flagged for a closer look

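In 4 of 108 sets of 4 libraries (36 members in normal diet, HFD and metformin), 1 library stood far from the other 3, and chance alone gives such a gap in about 1 in 20 sets. Oas2 was at 35.5 CPM in metformin 1 and at 17.9 to 19.4 CPM in the other metformin libraries. Rsad2 was at 14.3 CPM in metformin 2 and at 21.2 to 22.4 CPM in the others. Dhx58 was at 19.6 CPM in metformin 2 and at 8.30 to 10.1 CPM in the others. Metformin 2 also held 1230 CPM of summed spermatogenic cell markers, against 8.71 to 14.9 CPM in the other metformin libraries, and their part in the Rsad2 and Dhx58 values was not tested. Gbp2 was at 106.9 CPM in HFD unmatched and at 79.4 to 80.8 CPM in HFD 1 to 3.

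In resveratrol 4, the library left out for its Crisp1 level, 3 members lay above all 15 other libraries. These were the transcription factors Irf9 at 83.2 CPM (20.8 to 32.9 CPM in the others), Stat2 at 52.4 CPM (31.2 to 45.8 CPM) and Irf7 at 19.8 CPM (9.28 to 18.5 CPM). In the same library 19 members lay below all 15 others. The share of all genes above or below all 15 there was not counted, so it is not known whether these counts are particular to the members. Summed adipocyte markers were at 740.9 CPM in this library, against 11600 to 27410 CPM in the others. Summed endothelial markers were at 172.8 CPM, against 1054 to 2164 CPM.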

How the results depend on the processing

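The count of members called moved as follows, and the cause was not tested. A fit with fewer libraries changes group size and the make-up of the group together, so it cannot tell these apart. The counts are given without the share of all genes called in each fit, except where that share is stated above. With all 16 libraries it was 3 in HFD against normal diet, 0 in metformin against HFD, 1 in resveratrol against HFD and 0 in metformin against normal diet. With DESeq2 these counts were 13, 2, 3 and 6, and 3 in resveratrol against normal diet. With library totals as the only scaling, 0 members passed in metformin against HFD and 2 in metformin against normal diet. That scaling moved the median of all genes in metformin against HFD from 0.037 to 0.139 and that of the members from -0.040 to 0.064. Without the libraries rich in ciliated epithelium genes, which left 1 metformin library assumed to vary like the other groups, 0 members passed in metformin against HFD and 0 in metformin against normal diet. Without the count columns that match no title, 2 passed in resveratrol against HFD (Oas1a and Oasl1). In a fit of the 2 groups alone, 0 passed in metformin against normal diet. Without normal diet 2 and 4, an alternative chosen after seeing the data, 3 passed in HFD against normal diet and 0 in metformin against normal diet.

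Leaving out each library in turn gave 7 to 12 members in HFD against normal diet, 0 to 3 in metformin against HFD, 0 to 2 in resveratrol against HFD, 1 to 3 in metformin against normal diet and 0 to 1 in resveratrol against normal diet. These counts are not set against the share of all genes called in each fit, so they do not show moves particular to the members. The highest counts came without metformin 2 in the comparisons with normal diet (in resveratrol against normal diet also without resveratrol 2), without metformin 1 in metformin against HFD (Bst2 and Trim25 were added) and without HFD unmatched in resveratrol against HFD.

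Small differences that had not passed changed sign. Cmpk2 in metformin against HFD was -0.016 without the filter, -0.001 without the columns that match no title, and -0.047 to 0.038 with 1 library left out. Without the libraries rich in ciliated epithelium genes, resveratrol against HFD was 0.001 for Cmpk2, -0.139 for Isg15 and 0.091 for Stat2, and metformin against HFD was 0.131 for Stat2. Isg15 ranged from -0.144 to 0.102 with 1 library left out. Stat2 in metformin against HFD was 0.070 with library totals, 0.041 without the columns that match no title, and -0.085 to 0.033 with 1 library left out. Stat2 in resveratrol against HFD was 0.081 with all 16 libraries, 0.010 with library totals, 0.001 in a fit of the 2 groups alone, 0.025 without the columns that match no title, and -0.124 to 0.086 with 1 library left out. The share of members with the response element was 51.7% in the 250 bases before the start alone.

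No paired analysis was possible because the replicate numbers follow the order of the samples and pair nothing. The counts behind a member were 23 to 3970 per library, and at the low end counting error adds to the spread.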
